A study of Mus musculus with 10 samples.

Results

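Palindromic 8-mers are the 8-base sequences that equal their own reverse complement. They were taken from the deposited list of 8-mers by that rule alone, which used no measured value, and number 256 of the 32896 8-mers scored. Each consists of a 4-base half-site and its mirror image, so that the half-site names the palindrome. The central dinucleotide, bases 4 and 5, is CG, GC, AT or TA in 64 palindromes each. A central CG is present in 64, a CG only elsewhere in 39, and no CG in 153.

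The series used protein binding microarrays, glass slides with short duplex DNA probes on which a bound protein is read as fluorescence. Probes follow a DeBruijn design, in which every short sequence recurs in many contexts. The proteins were DNA-binding domains of mouse bZIP factors with an N-terminal GST tag, made in a cell-free transcription and translation kit, and not full-length proteins. The study set the sequence preferences of CEBPB(V285A) beside those of CREB1, according to its title. There were 5 groups of 2 arrays each. CEBPB(V285A) and CREB1(A297V), point mutants made by site-directed mutagenesis, were each measured on DNA methylated with M.SssI, a bacterial enzyme that methylates the cytosine of CG, and on unmethylated DNA. Wild-type CREB1 was measured on unmethylated DNA. CREB1 on methylated DNA and wild-type CEBPB were not analysed here, so each methylation comparison concerns a mutant.

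Basic leucine zipper proteins bind DNA as dimers. A coiled coil holds the pair together, and each basic region lies in the major groove of a half-site, so that both subunits of a homodimer meet the same letters on a palindrome. CREB1 is known for the cAMP response element, the PAR proteins (DBP, TEF and HLF) for a site with TTAC half-sites, and CEBPB for TTGC half-sites, while the E-box core CACGTG is usually bound by basic helix-loop-helix proteins. M.SssI methylates CG on both strands, so a palindrome with a central CG carries 2 methyl groups there.

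The palindromes on which the results turn are shown with the left half-site in capitals and its mirror image in lower case, 5′ to 3′. The first 4 hold the known sites named above, and the others either led a group or differed between groups.
TGAC palindrome (CRE): TGACgtca
TTAC palindrome (PAR site): TTACgtaa
TTGC palindrome (C/EBP site): TTGCgcaa
TCAC palindrome (holds the E-box core): TCACgtga
TGTC palindrome: TGTCgaca
CTAC palindrome: CTACgtag
ACGT palindrome: ACGTacgt
GTAA palindrome: GTAAttac
GTCA palindrome: GTCAtgac
TTAT palindrome: TTATataa
TTAG palindrome: TTAGctaa
TTTC palindrome: TTTCgaaa

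Values are Z-scores unless another scale is named. A probe's log2 signal was set against its neighbourhood on the slide, and the median was taken over all probes that hold the 8-mer. Z is that median's distance from the middle of all 8-mers of the array, in units of their robust spread. A palindrome occurred on 15 to 20 probes and any other 8-mer on 25 to 42, and the residual SD between replicate arrays had a median of 0.336 for palindromes and 0.260 for the others. Median spot signal ranged from 345 to 1857 over the 10 arrays and the ratio of signal to background from 1.79 to 5.10. Replicate arrays correlated at 0.935 to 0.986 over the palindromes. On the unmethylated CREB1(A297V) arrays the top of the scale was lower: the strongest 8-mer reached 2.79 and 2.68 log2 units over the median, against 4.73 to 6.05 on the other 8 arrays. Array identifiers show that CREB1(A297V) and CREB1 on unmethylated DNA shared one identifier, that unmethylated CEBPB(V285A) had another, and that both methylated groups had yet another. For every comparison other than CREB1(A297V) against CREB1, identifier and group cannot be told apart. Labels do not say whether replicate arrays used separate protein preparations, so the p-values rest on the spread of arrays, and that spread may be technical.

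A few palindromes stood far above the rest in every group. A mean Z of at least 3 was reached by 19 palindromes (7.42%) with methylated CEBPB(V285A), against 3.28% of all 8-mers. The other shares were 8.98% against 3.50% with unmethylated CEBPB(V285A), 5.08% against 2.90% with methylated CREB1(A297V), 4.30% against 1.68% with unmethylated CREB1(A297V), and 9.38% against 2.69% with CREB1. The palindromes nearest to this threshold lay between 3.01 and 3.14 just inside it and between 2.92 and 2.99 just outside it over the 5 groups. Between 3 and 5 palindromes were among the 100 strongest 8-mers of each group. These shares are descriptions, since palindromes were read on fewer probes than other 8-mers.

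The bound palindromes were counted by their centre. Of those at 3 or more, a central CG was held by 7 of 19 with methylated CEBPB(V285A), 11 of 23 with unmethylated CEBPB(V285A), 7 of 13 with methylated CREB1(A297V), 4 of 11 with unmethylated CREB1(A297V) and 12 of 24 with CREB1. Palindromes with no CG numbered 10, 5, 5, 7 and 6 in the same groups. The median of the CG-centred palindromes was 0.13 with methylated CEBPB(V285A), 0.25 with methylated CREB1(A297V) and 0.27 with unmethylated CREB1(A297V). In these 3 groups the AT centre had the highest median, at 0.63, 0.61 and 0.53, and the GC centre the lowest, at 0.07, -0.11 and -0.21. With unmethylated CEBPB(V285A) the TA centre led at 0.58 and CG followed at 0.47. With CREB1 the CG-centred palindromes had the highest median of the 4 centres, 0.73, followed by TA at 0.44, AT at 0.36 and GC at -0.15. The median palindrome of every centre was thus below 1 in every group, while the highest CG-centred palindrome stood at 21.6 to 30.8.

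Read base by base, counted from the outer end of the half-site, the 64 CG-centred palindromes had their highest means with T at position 1 and with A at position 3 in every group. The 16 with T at position 1 had a mean Z of 4.26 with methylated CEBPB(V285A), 5.00 with unmethylated CEBPB(V285A), 4.95 with methylated CREB1(A297V), 3.75 with unmethylated CREB1(A297V) and 3.96 with CREB1. The 16 palindromes with A at position 3 had a mean Z of 4.42 with methylated CEBPB(V285A), 6.20 with unmethylated CEBPB(V285A), 4.31 with methylated CREB1(A297V), 2.96 with unmethylated CREB1(A297V) and 6.13 with CREB1. C at position 3 was lowest in every group, with means between -0.87 and -0.32. By mean, the second base at this position was G with CEBPB(V285A), at 1.05 methylated and 1.30 unmethylated. It was T with CREB1(A297V), at 1.43 methylated and 1.17 unmethylated, and T with CREB1, at 1.02. The medians mostly gave another order. T exceeded G by median with CEBPB(V285A), at 0.34 against 0.02 methylated and 0.40 against 0.16 unmethylated. G exceeded T by median with unmethylated CREB1(A297V), at 0.46 against 0.32, and with CREB1, at 0.70 against 0.59. Only with methylated CREB1(A297V) did T lead by median too, at 0.27 against 0.09.

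With A fixed at position 3, T at position 1 led in every group, with means over 4 palindromes of 11.95 and 14.5 with methylated and unmethylated CEBPB(V285A), 13.4 and 10.2 with methylated and unmethylated CREB1(A297V), and 13.6 with CREB1. The proteins differed in the other bases at position 1. C there averaged 2.22 and 5.28 with methylated and unmethylated CEBPB(V285A), 1.37 and 0.30 with methylated and unmethylated CREB1(A297V), and 5.03 with CREB1. G at position 1 was lowest in all 5 groups, between -0.20 and 1.73. At position 2, T exceeded G with the mutants: 7.34 against 5.57 with methylated CEBPB(V285A), 11.3 against 7.19 unmethylated, 7.97 against 5.48 with methylated CREB1(A297V), and 6.23 against 3.06 unmethylated. CREB1 gave nearly the same mean for T, 9.06, and G, 8.85. By median, T and G at position 2 stood at 8.98 and 2.78 with CREB1, and at 9.06 and 3.16 with unmethylated CEBPB(V285A). The medians were 3.19 and 2.17 with methylated CEBPB(V285A), 2.52 and 0.73 with methylated CREB1(A297V), and 1.85 and -0.28 unmethylated. The TGAC palindrome thus carried the G means. With CREB1 and unmethylated CEBPB(V285A) the T means did not rest on the TTAC palindrome alone, since CTAC stood at 10.5 and 11.5. CTAC also led the C means at position 1 in these groups.

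The ACGT core alone did not set the level. Among the 16 palindromes with this core, 6 reached 3 with methylated CEBPB(V285A), 8 with unmethylated CEBPB(V285A), 4 with methylated CREB1(A297V), 2 with unmethylated CREB1(A297V) and 9 with CREB1. The GGAC palindrome was the lowest of the 16 in every group, between -1.74 and -0.80. A sum of independent contributions of the bases at positions 1, 2 and 3 accounted for 35.8% to 44.2% of the variance of log2 signal over the 64 CG-centred palindromes. With CREB1 the TGAC palindrome stood at 4.83 log2 units above the array median, while that sum gave 1.42. The best palindrome was thus bound by far more than the sum of its bases gave.

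TGACGTCA was the strongest palindrome with CREB1 and the second strongest with both mutants. It scored 19.1 and 18.6 on the 2 methylated CEBPB(V285A) arrays, 23.3 and 23.1 on the unmethylated ones, 21.3 and 21.9 with methylated CREB1(A297V), 12.7 and 16.4 with unmethylated CREB1(A297V), and 29.1 and 32.5 with CREB1. Both CREB1 arrays lay above all 8 arrays of the mutants. In fold over the array median the same palindrome stood at 29.6, 26.3, 19.3, 3.58 and 28.5 in that order. Fold and Z thus order the groups differently, since Z divides by the spread of each array.

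TTACGTAA, the PAR site, was the strongest palindrome and the strongest of all 8-mers with both mutants in both DNA states. It scored 23.9 and 20.7 with methylated CEBPB(V285A), 25.5 and 25.5 with unmethylated CEBPB(V285A), 24.8 and 28.4 with methylated CREB1(A297V), 19.1 and 24.0 with unmethylated CREB1(A297V), and 14.8 and 15.9 with CREB1. Every mutant array lay above both CREB1 arrays. With CREB1 it was the second palindrome and the 24th of all 8-mers. The strongest palindrome of each group was the same under all 6 alternative scores.

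TTGCGCAA, the C/EBP site, separated CEBPB(V285A) from the CREB1 proteins. Scores were 18.6 and 17.9 with methylated CEBPB(V285A), 15.6 and 16.8 with unmethylated CEBPB(V285A), 4.61 and 5.37 with methylated CREB1(A297V), 1.08 and 3.16 with unmethylated CREB1(A297V), and 2.09 and 2.62 with CREB1. The 4 CEBPB(V285A) arrays did not overlap the other 6. In fold over the array median it stood at 26.4 and 9.73 with methylated and unmethylated CEBPB(V285A), 1.98 and 1.19 with methylated and unmethylated CREB1(A297V), and 1.29 with CREB1.

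The last base of the half-site, which sets the central dinucleotide, was read by keeping TTA and changing position 4. TTATATAA, whose centre is TA, scored 10.2 and 8.62 with methylated CEBPB(V285A), 7.30 and 6.02 with unmethylated CEBPB(V285A), 0.81 and 1.56 with methylated CREB1(A297V), 1.06 and 1.43 with unmethylated CREB1(A297V), and 0.30 and -0.52 with CREB1. TTAGCTAA, whose centre is GC, scored 3.26 and 3.88 with methylated CEBPB(V285A), 2.88 and 2.62 with unmethylated CEBPB(V285A), 9.23 and 11.2 with methylated CREB1(A297V), 4.61 and 8.05 with unmethylated CREB1(A297V), and -0.06 and -0.33 with CREB1. Each mutant thus had its own second centre next to TTA, TA with CEBPB(V285A) and GC with CREB1(A297V), and CREB1 had neither. TTAATTAA, with centre AT, stayed at 1.21 or below in every group. With TGA kept instead, the TGAT palindrome reached 4.24 with methylated CEBPB(V285A) and 2.03 with CREB1, and the TGAA and TGAG palindromes were below 0 in all 5 groups.

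CEBPB(V285A) was compared with CREB1 on unmethylated DNA to ask how far the mutant shares the CREB1 sites. Of the 256 palindromes, 11 were higher and 9 lower (7.81%), against 6.38% of all 8-mers, and the median difference was 0.06 over the palindromes and 0.01 over all 8-mers. Among all 8-mers 3.76% were higher and 2.62% lower. On the log2 scale, without division by each array's spread, the split was 27 higher and 6 lower, and after quantile normalization 10 higher and 16 lower. TTGCGCAA rose by 13.8 ± 1.00 (SE; limma adjusted p = 1.38e-06) and TTATATAA by 6.77 ± 0.63 (limma adjusted p = 1.42e-05). These 2 calls held under all 22 alternatives run, each left-out array included. Both start with TT, like the TTAC half-site.

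TTACGTAA was also called higher, by 10.1 ± 2.57 (limma adjusted p = 0.0285), but the call was lost when any of 8 arrays was left out, all except the unmethylated CREB1(A297V) pair, with adjusted p between 0.0522 and 0.184. TGACGTCA was lower by 7.58 ± 2.38 and not called (limma difference -7.58, adjusted p = 0.0681). It was called when either unmethylated CREB1(A297V) array was left out (limma adjusted p = 0.00897). Smaller calls were TCTGCAGA, which scored 1.29 and 1.27 with the mutant against -0.97 and -1.03 with CREB1, and TAATATTA, at 2.22 and 2.67 against 0.25 and 0.68. The 5 largest falls were GATGCATC, CGGCGCCG, TGTATACA, GTACGTAC and GTGTACAC, between -1.93 and -1.45, and none of the 5 exceeded 3.30 with CREB1. Of these 7 smaller calls, only TCTGCAGA was kept whichever array was left out, and it was lost in the authors' deposited scores (limma adjusted p = 0.273), with the ratio of signal to background (0.524) and without the local window (0.0673). The highest adjusted p without single arrays was 0.128 for TAATATTA, without unmethylated CEBPB(V285A) replicate 2, and 0.0978 to 0.293 for the falls. CTACGTAG, ACGTACGT, ATACGTAT and TCACGTGA, at 6.22 to 11.5 with the mutant and 5.89 to 10.5 with CREB1, were not called, with differences between -0.87 and 1.04. Palindromes with a central CG gave 2 higher and 2 lower, those with no CG 9 higher and 4 lower.

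CREB1(A297V) differed from CREB1 mainly by lower scores of palindromes with CG. Of the 256, 20 were higher and 34 lower (21.1%), against 19.1% of all 8-mers (8.25% higher, 10.8% lower), with a median difference of -0.02 over palindromes and 0.02 over all 8-mers. On the log2 scale the split was 8 higher and 27 lower, and in the authors' deposited scores 5 and 27. With a central CG, 2 were higher and 17 lower of 64 (median -0.30), and with a CG only elsewhere 0 were higher and 10 lower of 39 (median -0.52). With no CG, 18 were higher and 7 lower of 153 (median 0.14). All 12547 8-mers with CG had a median difference of -0.23 and 24.4% called, so the direction was shared with non-palindromic 8-mers. Under each of the 6 alternative scores both classes with CG had more lower than higher calls. For those with no CG the counts were 5 higher and 8 lower in the authors' scores and 6 and 6 without the local window.

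The falls of CREB1(A297V) against CREB1 included the CRE. TGACGTCA fell by 16.3 ± 2.38 (limma adjusted p = 0.000222). CTACGTAG scored 0.90 and 0.80 with CREB1(A297V), against 9.94 and 10.97 with CREB1, a difference of -9.60 ± 1.00 (limma adjusted p = 2.29e-05). ACGTACGT scored 0.51 and 0.75, against 7.05 and 9.60, a difference of -7.70 ± 0.84 (limma adjusted p = 2.61e-05). The levels of both with the mutant were those of a typical 8-mer, and these 2 calls held under all 23 alternatives. CGTCGACG, GACGCGTC, ATACGTAT and CGTATACG fell by 4.79, 4.74, 4.65 and 4.58, and GTCATGAC by 4.17 (limma adjusted p = 0.000896). The E-box palindrome TCACGTGA scored 2.45 and 2.81, against 5.19 and 6.58 (difference -3.26, limma adjusted p = 0.00112). TGACGTCA was not called in 2 fits with another prior for the variance (limma adjusted p = 0.304 and 0.331).

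The rises of CREB1(A297V) were fewer. TGTCGACA, which has T in place of the A at position 3, scored 8.87 and 12.8 with CREB1(A297V), against 3.24 and 4.40 with CREB1 (difference 7.00 ± 1.15, limma adjusted p = 0.000568). TTAGCTAA rose by 6.53 ± 0.89 (limma adjusted p = 0.000136) and TTTCGAAA by 2.49 ± 0.46 (limma adjusted p = 0.00134), at 2.80 and 3.29 against 0.90 and 0.21. In the authors' deposited scores TGTCGACA was not called, nor was TTTCGAAA (limma adjusted p = 0.0726). With its own variance alone TGTCGACA was not called, nor was TTAGCTAA (limma adjusted p = 0.0587). AAAATTTT rose by 1.85, though its level with the mutant was only 0.82, and its call was lost under 4 of the 6 alternative scores (highest limma adjusted p 0.670). GTAATTAC rose by 4.13 ± 1.10 (limma adjusted p = 0.0150). This call was lost without CREB1 replicate 1 or unmethylated CREB1(A297V) replicate 2, where the differences were 3.45 and 2.45. It was also lost on the log2 scale, in the authors' deposited scores and on the 4 arrays that share an identifier. With one prior trend over all 8-mers or with its own variance alone it was lost too (highest limma adjusted p 0.331). TTACGTAA was 6.21 ± 2.57 higher and not called (limma adjusted p = 0.104). It was called higher with the ratio of signal to background, after quantile normalization and without the local window. One prior value for the variance and a filter on low Z also gave the call (lowest limma adjusted p 0.00508). Without unmethylated CREB1(A297V) replicate 1 its difference was 8.66. TTGCGCAA differed by -0.24 (limma adjusted p = 0.896). Fitted on the 4 arrays that share an identifier, 24 palindromes were called, 5 higher and 19 lower, and all 24 were among the 54.

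With CEBPB(V285A), more palindromes were lower than higher on methylated DNA. Of the 256, 11 were higher and 24 lower (13.7%), against 7.65% of all 8-mers (3.89% higher, 3.76% lower), and the median difference was -0.14 over palindromes and 0.01 over all 8-mers. On the log2 scale 42 were higher and 58 lower, with normexp background correction 11 and 14, and in the authors' deposited scores 9 and 10. With a central CG, 2 were higher and 10 lower (median -0.54), with a CG only elsewhere 1 and 8 (median -0.48), and with no CG 8 and 6 (median 0.03). The median difference of all 8-mers with CG was -0.16. The medians of both CG classes were below that of all 8-mers under each of the 6 alternative scores.

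CTACGTAG scored 2.14 and 3.98 on methylated DNA, against 13.4 and 9.55 on unmethylated DNA, and fell by 8.43 ± 1.00 (limma adjusted p = 0.000685). This call was lost with the palindrome's own variance alone (limma adjusted p = 0.0853) and kept under the other 21 alternatives. ACGTACGT fell by 4.66 ± 0.84, at 4.48 and 3.81 against 9.93 and 7.67 (limma adjusted p = 0.00496). ATACGTAT, CGTCGACG and CGTATACG fell by 3.31, 3.30 and 3.22. The ATACGTAT call was lost without any of the 4 CEBPB(V285A) arrays (limma adjusted p between 0.0844 and 0.159), and that of CGTCGACG without any but unmethylated replicate 2 (0.0952 to 0.104). The calls of ACGTACGT and CGTATACG were each lost without unmethylated replicate 1 (0.0997 and 0.0736), methylated replicate 1 (0.0722 and 0.0680) or methylated replicate 2 (0.0741 and 0.0538). TGACGTCA, TTACGTAA and TTGCGCAA were not called, with differences of -4.34, -3.20 and 2.06 (limma adjusted p = 0.272, 0.468 and 0.214). TTGCGCAA was called higher on the log2 scale, by 1.44 log2 units (limma adjusted p = 6.52e-09). It was also called higher in the authors' deposited scores (0.00187), with normexp (0.0167) and after quantile normalization (0.0154). TGACGTCA and TTACGTAA were above 0 on the log2 scale, at 0.17 and 0.59 log2 units. TTACGTAA was also above 0 in the authors' deposited scores and with normexp. Over these scores its lowest limma adjusted p was 0.0395, so it was called higher under the score that gave this value. TGACGTCA was called lower with one prior value for the variance.

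Among the rises, GTGATCAC, in which the half-sites of the E-box palindrome are turned outward, scored 5.23 and 5.25 on methylated DNA, against 2.43 and 2.42 on unmethylated DNA (difference 2.81 ± 0.47, limma adjusted p = 0.00364). TTATATAA rose by 2.74 ± 0.63 (limma adjusted p = 0.0172). Neither sequence holds a CG that M.SssI could modify. GTGATCAC was not called without unmethylated replicate 1 (0.0605), methylated replicate 1 (0.0751) or methylated replicate 2 (0.0507), and TTATATAA not without unmethylated replicate 1 (0.0625), unmethylated replicate 2 (0.179) or methylated replicate 1 (0.266). GAACGTTC, CTTCGAAG and TTGTACAA rose by 2.12, 1.97 and 1.73, with levels on methylated DNA between 2.00 and 2.99. The calls of CTTCGAAG and TTGTACAA were lost without any of the 4 CEBPB(V285A) arrays, and that of GAACGTTC without any but unmethylated replicate 2 (highest limma adjusted p 0.116, 0.0858 and 0.117). All 3 were also lost with the ratio of signal to background and without the local window, and GAACGTTC with normexp (limma adjusted p between 0.0614 and 0.175).

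With CREB1(A297V), palindromes were called in both directions between the DNA states. Of the 256 palindromes, 39 were higher and 30 lower on methylated DNA (27.0%), against 21.8% of all 8-mers (10.5% higher, 11.3% lower), with a median difference of 0.03 over palindromes and 0.02 over all 8-mers. On the log2 scale the split was 50 higher and 37 lower, in the authors' deposited scores 21 and 8, and with normexp background correction 19 and 29. Palindromes with a central CG gave 7 higher and 7 lower, those with a CG only elsewhere 4 and 8, and those with no CG 28 and 15. GC-centred palindromes gave 14 higher and 14 lower of 64. The methylated arrays of this protein also had their probes at other positions on the slide than the unmethylated ones, so position and DNA state cannot be told apart here.

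GTAATTAC scored 14.9 and 15.9 on methylated DNA, against 7.41 and 10.8 on unmethylated DNA (difference 6.31 ± 1.10, limma adjusted p = 0.00110), and was not called with normexp correction (0.174) or quantile normalization (0.256). TTTCGAAA scored 6.12 and 6.82, against 2.80 and 3.29 (difference 3.43 ± 0.46, limma adjusted p = 0.000153), and held under all 22 alternatives. TTAGCTAA rose by 3.89 ± 0.89 (limma adjusted p = 0.00612), not called without unmethylated replicate 1 (0.0544) or methylated replicate 2 (0.116). TACGCGTA, which holds 2 CG at positions 3 and 5, rose by 2.49 (limma adjusted p = 0.0183), and GTCATGAC by 2.35 (limma adjusted p = 0.0300). TGACGTCA rose by 7.03 ± 2.38 (limma adjusted p = 0.0444) and TTGCGCAA by 2.88 ± 1.00 (limma adjusted p = 0.0492), both near the threshold. Omission of single arrays ended the TGACGTCA call in 9 of 10 cases, all but that of unmethylated CREB1(A297V) replicate 2, with adjusted p between 0.0521 and 0.208. The TTGCGCAA call held in 3 of 10 cases and reached 0.250 in the others. Of the 6 alternative scores, 2 kept the TGACGTCA call, the log2 scale and the score without the local window. It was lost in the authors' deposited scores, with normexp, with the ratio of signal to background and after quantile normalization. The TTGCGCAA call was also kept by 2 of the 6, the log2 scale and the ratio. TTACGTAA and TGTCGACA were 5.05 and 2.43 higher and not called (limma adjusted p = 0.172 and 0.141). TTACGTAA was called higher on the log2 scale, by 2.54 log2 units (limma adjusted p = 1.07e-09), in the authors' deposited scores (0.0414) and with one prior value for the variance (0.0287). It was also called without unmethylated CREB1(A297V) replicate 2, at 7.50 (limma adjusted p = 0.0231), while with normexp and after quantile normalization its difference was below 0.

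The falls of CREB1(A297V) on methylated DNA included palindromes with and without CG. CTCGCGAG, with CG at positions 3 and 5, scored -0.58 and -1.08 on methylated DNA, against 1.64 and 1.66 on unmethylated DNA (difference -2.48 ± 0.32, limma adjusted p = 0.000103). GTGGCCAC, which has no CG, scored -2.02 and -1.88, against 0.22 and -0.01 (difference -2.05 ± 0.27, limma adjusted p = 0.000117). Both calls held under every alternative run. AATATATT, CCTCGAGG and GATGCATC fell by 2.43, 2.02 and 2.00, with levels on unmethylated DNA of 1.36 to 4.01.

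The response to methylation was compared between the mutants by the interaction term, the difference in CEBPB(V285A) minus that in CREB1(A297V). It was called positive for 1 palindrome and negative for 10 (4.30%), against 3.12% of all 8-mers (1.5% positive, 1.63% negative). On the log2 scale 9 were positive and 21 negative, and with normexp correction 5 and 3. The largest called was CTACGTAG, at -10.2 ± 1.41 (limma adjusted p = 0.00557). It combined a difference of -8.43 with CEBPB(V285A) and one of 1.75 with CREB1(A297V) that was not called (limma adjusted p = 0.222), whose unmethylated level was 0.85. Its call was lost without methylated CEBPB(V285A) replicate 1 (0.0732) or methylated CREB1(A297V) replicate 1 (0.0525) or 2 (0.0510). Without any of those 3 arrays no palindrome was called by limma, while 40, 47 and 43 had an unadjusted p below 0.05. TGACGTCA and TTACGTAA differed by -11.4 and -8.25 and were not called (limma adjusted p = 0.0723 and 0.209). On the log2 scale both were called negative, while with normexp both changed sign. TGACGTCA was also called negative without the local window, with one prior value for the variance and when 8-mers of low Z were filtered out. Without unmethylated CREB1(A297V) replicate 2 the differences were -13.2 and -10.7.

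Turning the half-sites outward left part of the binding. GTCATGAC, made of TGAC half-sites with their inner ends outermost, scored 6.44 and 6.66 with methylated CEBPB(V285A), 6.91 and 5.97 with unmethylated CEBPB(V285A), 5.52 and 5.41 with methylated CREB1(A297V), 2.31 and 3.93 with unmethylated CREB1(A297V), and 7.64 and 6.94 with CREB1. It ranked 6th to 10th among the palindromes of each group. GTAATTAC, the TTAC half-sites turned outward, ranked 6th with CEBPB(V285A) in both DNA states, 3rd and 4th with methylated and unmethylated CREB1(A297V), and 11th with CREB1. GCAATTGC, the TTGC half-sites turned outward, scored 1.09 and 1.65 with methylated and unmethylated CEBPB(V285A), ranking 81st and 57th, although TTGCGCAA was the third palindrome with this protein. GTAGCTAC, from CTAC, scored at most 1.62 in any group. The outward form was thus among the leading palindromes for the TGAC and TTAC half-sites and not for TTGC or CTAC.

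Around TGACGTCA and TTACGTAA, most changes of a base cost more in both half-sites than in a single one. Around TGACGTCA, 12 symmetric single-base changes are possible, and the 8-mer with the change in a single half-site lay above the palindrome with it in both for 11 of 12 with methylated CEBPB(V285A), 11 with unmethylated CEBPB(V285A), 10 with methylated CREB1(A297V), 9 with unmethylated CREB1(A297V) and all 12 with CREB1. The median loss on the log2 scale with CREB1 was -4.52 for both half-sites and -3.52 for a single one. Around TTACGTAA, the counts were 11, 12, 12, 12 and 11 in the same order of groups, and the median losses with unmethylated CEBPB(V285A) were -4.24 and -3.18. With CREB1, TGATATCA scored 2.03 and TGACATCA 9.17, while CGACGTCG scored 3.65 and CGACGTCA 14.6. Around TTGCGCAA the counts were 11, 11, 7, 6 and 5, and with CREB1 the median losses were -0.32 for both half-sites and -0.39 for a single one. Among the exceptions around TGACGTCA was T at position 3 with CREB1(A297V). TGTCGACA, with the change in both half-sites, scored 13.3 and 10.8 on methylated and unmethylated DNA, and TGACGACA, with the change in a single one, 11.2 and 6.32.

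Mixed sites, made of half-sites from different palindromes, mostly fell between or below their parents. TGACGTAA, with a CRE and a PAR half-site, scored 21.0 with methylated CEBPB(V285A), 24.3 with unmethylated CEBPB(V285A), 22.8 with methylated CREB1(A297V), 18.5 with unmethylated CREB1(A297V) and 21.2 with CREB1. Its log2 signal lay within 0.30 of the mean of both parent palindromes in all 5 groups. TGACGCAA, with a CRE and a C/EBP half-site, differed from that mean by -0.65 and -0.53 log2 units with methylated and unmethylated CEBPB(V285A). CTACGCAA differed by -1.63 log2 units and TGTCGCAA by -1.42 with unmethylated CEBPB(V285A), both far below the mean of their parents. Over the 2016 pairs of half-sites, the log2 signal of the mixed 8-mer correlated with the mean of its parents at 0.771 and 0.769 with methylated and unmethylated CEBPB(V285A), 0.756 and 0.615 with methylated and unmethylated CREB1(A297V), and 0.799 with CREB1. The pairs share half-sites, arrays and probes.

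For several palindromes the bases just outside went with large differences in signal, a pattern noticed in these data and described without a test. Each palindrome lay in the interior of 16 probes, one for each pair of outer bases. Signal is given as fold over the median of the probe's local window on the slide, averaged over the 2 arrays on the log scale. The folds given further above were over the array median, so both sets differ in reference. For TGACGTCA with methylated CEBPB(V285A), the median was 41.7-fold over the 9 probes without T before either half-site, 14.0-fold over the 6 with T before one, and 3.09-fold on the probe with T before both. With CREB1 the same palindrome gave 37.4, 21.5 and 5.23-fold. TTACGTAA gave 117, 13.7 and 8.26-fold with methylated CEBPB(V285A) and 70.1, 12.9 and 13.2-fold with unmethylated CEBPB(V285A). TTGCGCAA gave 51.5, 11.4 and 1.47-fold with methylated CEBPB(V285A). GTAATTAC had the opposite order, with 2.30, 4.27 and 42.9-fold for unmethylated CEBPB(V285A) and 5.78, 13.0 and 60.6-fold for methylated CREB1(A297V). CTACGTAG with unmethylated CEBPB(V285A) gave 5.15, 5.06 and 2.21-fold. The site also lay at a different distance from the slide on each probe, and the part of that in these differences was not tested.

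The probes with the same base before both half-sites show this contrast, with the palindrome in capitals and the rest of the variable region in lower case.
TGACGTCA, A outside: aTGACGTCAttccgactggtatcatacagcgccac
TGACGTCA, G outside: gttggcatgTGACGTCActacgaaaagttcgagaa
TGACGTCA, C outside: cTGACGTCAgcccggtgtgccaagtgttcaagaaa
TGACGTCA, T outside: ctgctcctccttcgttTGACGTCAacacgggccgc
TTACGTAA, A outside: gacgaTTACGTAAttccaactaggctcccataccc
TTACGTAA, G outside: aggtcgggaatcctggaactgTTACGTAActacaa
TTACGTAA, C outside: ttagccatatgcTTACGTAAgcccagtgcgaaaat
TTACGTAA, T outside: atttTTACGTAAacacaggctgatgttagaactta
TTGCGCAA, A outside: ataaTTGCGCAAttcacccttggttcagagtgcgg
TTGCGCAA, G outside: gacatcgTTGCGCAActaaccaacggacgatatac
TTGCGCAA, C outside: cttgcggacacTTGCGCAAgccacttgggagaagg
TTGCGCAA, T outside: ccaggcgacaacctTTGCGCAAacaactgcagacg

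For TGACGTCA, the A, G, C and T probes gave 28.1, 120, 14.9 and 3.09-fold with methylated CEBPB(V285A) and 46.1, 54.0, 26.7 and 5.23-fold with CREB1, so the T probe was the lowest with both. For TTACGTAA they gave 146, 121, 70.9 and 8.26-fold with methylated CEBPB(V285A), 72.0, 58.7, 49.6 and 13.2-fold with unmethylated CEBPB(V285A), and 14.7, 5.08, 12.01 and 5.52-fold with CREB1. For TTGCGCAA they gave 73.1, 73.5, 14.2 and 1.47-fold with methylated CEBPB(V285A) and 31.5, 42.8, 5.52 and 1.484-fold with unmethylated CEBPB(V285A). The T probe of the C/EBP palindrome was thus near the median of its window even with CEBPB(V285A). With CREB1 the 4 TTGCGCAA probes lay between 0.77 and 2.03-fold. For TGTCGACA with methylated CREB1(A297V), the geometric mean was 15.7-fold over half-site ends after G and 3.19-fold over those after T.

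The 2 strongest GTAATTAC probes with CEBPB(V285A) also held another site that ends in GTAA, the mirror image of TTAC: TTGCGTAA on one and TTATGTAA on the other. The part of these sites in the signal was not tested. They are shown with the palindrome in capitals.
GTAATTAC with TTGCGTAA: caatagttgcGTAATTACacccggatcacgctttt
GTAATTAC with TTATGTAA: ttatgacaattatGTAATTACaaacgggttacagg
The first gave 105-fold and 61.4-fold over the window median with methylated and unmethylated CEBPB(V285A). The second gave 42.9-fold with unmethylated CEBPB(V285A) and 60.6-fold with methylated CREB1(A297V). The score of a palindrome is a median over its probes, so a single probe has little weight.

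In mouse promoter windows of 300 bases from RefSeq (GRCm38.p6, 250 bases before to 50 after each gene's start), TGACGTCA occurred in 588 of 32851 (1.79%). TTACGTAA occurred in 39, TTGCGCAA in 60, CTACGTAG in 35 and TGTCGACA in 26. GTAATTAC was found in 56, TTAGCTAA in 66 and TTATATAA in 182. Each search was for the exact letters, and a palindrome reads the same on both strands. The median share of promoters that held a palindrome was 0.23% for a CG centre, 0.60% for GC, 0.36% for AT and 0.32% for TA. Of the sites named here the CRE was thus the most frequent in promoters. A match is a description of letters and says nothing of binding in cells.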

How the data were processed

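Per the file headers, the deposited spot tables give 2 linear intensity columns, the median signal and the median local background, with no subtraction. Further processing by the authors is not given in the sources used here. A deposited matrix of the authors' Z-scores, a score per 8-mer whose making is known only in part, served as an alternative. Each table has 40330 probes with a variable region of 35 bases and no control spots.

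The log2 of each signal intensity was computed here from the deposited values and lowered by the median of a window of 15 by 15 spots. An 8-mer, merged with its reverse complement, was scored by the median over its probes (at least 8), centred on the array median and divided by 1.4826 times the median absolute deviation. Differences were fitted with limma 3.58.1 in R 4.3.3 on all 10 arrays, with 5 group coefficients and 5 residual degrees of freedom. The prior variance followed a trend on log2(mean Z + 4), estimated separately for palindromes and other 8-mers. Tests were two-sided, adjusted by Benjamini-Hochberg over 32896 8-mers and called at an adjusted p below 0.05, in 5 comparisons.

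The fit was tested on simulated data with means and spread taken from the real data, in which palindromes not given a difference were left unchanged. Of palindromes given a difference of 2 in Z, it called 56.5% for CEBPB(V285A) against CREB1 and 50% for CREB1(A297V) against CREB1, and between the DNA states 63.6% in CEBPB(V285A) and 54.2% in CREB1(A297V). Of those given a difference of 4, it called 88.9%, 92.3%, 89.3% and 92.3% in the same order. In each, 0 of 206 unchanged palindromes were called. Between 22 and 28 palindromes were given each difference, while the real comparisons had between 2100 and 7161 calls over all sequences tested. With more calls the adjustment accepts a larger unadjusted p. The rates of the simulation therefore cannot be carried over to the real calls. The number of arrays limits the precision, and with 2 arrays a group no group can be tested for an outlying array.

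Named palindromes were those with set half-sites (TGACGTCA, TTACGTAA, TTGCGCAA, TCACGTGA, TGTCGACA, TTATATAA, TTAATTAA and TTAGCTAA), the 10 strongest of each group, the 5 largest calls per direction and comparison, and symmetric single-base changes of the first 3. A few others are shown beside them for contrast. Members and lists were chosen with earlier results of these data known. Alternatives were 6 other scores, other priors for the variance, a filter on low Z, the replicate number as a block, arrays sharing an identifier, and each array left out.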

Additional observations from a re-analysis of the deposited data

Results flagged for a closer look

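The change between methylated and unmethylated DNA differed between CEBPB(V285A) and CREB1(A297V) for 11 palindromes by limma's interaction term. The values below are the difference in CEBPB(V285A) minus that in CREB1(A297V), in Z. Identifier and DNA state cannot be told apart in these comparisons. Probe layout changed between the DNA states with CREB1(A297V) and not with CEBPB(V285A), so layout and the interaction cannot be told apart either.

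Of the palindromes with CG, CTACGTAG had the largest called interaction, -10.2. TGACGTCA, at -11.4, was not called in the main score. CTACGTAG averaged 3.06 on methylated and 11.5 on unmethylated DNA with CEBPB(V285A), and 2.60 and 0.85 with CREB1(A297V). The same order held for ACGTACGT at -6.52, CGTATACG at -4.01, CGTCGACG at -3.71 and GACGCGTC at -3.70. All 4 were lower on methylated DNA with CEBPB(V285A), with means between 1.68 and 4.14 on methylated DNA against 3.93 to 8.80 on unmethylated DNA, and higher with CREB1(A297V). TTTCGAAA, at -2.52, averaged 1.65 and 0.74 with CEBPB(V285A) and 6.47 and 3.04 with CREB1(A297V), so both means were higher on methylated DNA.

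Without a CG, GTAATTAC stood at -6.77, with means of 6.88 and 7.34 on methylated and unmethylated DNA with CEBPB(V285A) and of 15.4 and 9.09 with CREB1(A297V). GTCTAGAC was at -2.19, CCAATTGG at -1.55, ACCTAGGT at -1.47 and GGGATCCC at 2.20. The 4 palindromes named last lay at 1.76 or below in every mutant group, so they were not strongly bound in any. Adjusted p for the 11 lay between 0.00557 and 0.0483 in the limma fit. All 11 calls were lost without methylated CEBPB(V285A) replicate 1 or without either methylated CREB1(A297V) array.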

How the results depend on the processing

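The count of called palindromes moved with the score and the variance model. For CEBPB(V285A) against CREB1 it was 20, and 33 on the log2 scale (27 higher, 6 lower), 3 in the authors' deposited scores, 4 with the ratio of signal to background, and 5 without the local window and with each 8-mer's own variance. With normexp it was 24 (7 higher, 17 lower). For CREB1(A297V) against CREB1 it was 54, and 35 on the log2 scale, 32 in the authors' scores, 34 with the ratio, 35 without the window, 16 with own variance and 24 on the 4 arrays sharing an identifier. For methylation with CEBPB(V285A) it was 35, and 100 on the log2 scale, 19 in the authors' scores, 10 with the ratio and without the window, and 0 with own variance (limma; 68 at an unadjusted p below 0.05). For methylation with CREB1(A297V) it was 69, and 29 in the authors' scores, 21 with the ratio, 25 without the window, 22 with own variance and 31 under a filter that kept 8-mers at Z of 1 or more in some group. For the interaction it was 11, and 30 on the log2 scale, 3 with the ratio, 6 after quantile normalization, 5 without the window, 18 with one prior trend, 17 with the trend on mean Z and 0 with own variance (limma; 49 at an unadjusted p below 0.05). The cause was not tested.

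With single arrays left out, the counts ranged between 4 (without unmethylated CEBPB(V285A) replicate 1) and 32 (without unmethylated CREB1(A297V) replicate 1) for CEBPB(V285A) against CREB1. They ranged between 25 (without CREB1 replicate 2) and 61 (without unmethylated CREB1(A297V) replicate 1) for CREB1(A297V) against CREB1, and between 1 (without methylated CEBPB(V285A) replicate 1) and 50 (without unmethylated CREB1(A297V) replicate 1) for methylation with CEBPB(V285A). For methylation with CREB1(A297V) the range was 19 (without its methylated replicate 2) to 71 (without CREB1 replicate 1). For the interaction it was 0 (without methylated CEBPB(V285A) replicate 1 or either methylated CREB1(A297V) array; 40, 47 and 43 at an unadjusted p below 0.05) to 28 (without unmethylated CREB1(A297V) replicate 2). The interaction calls of GGGATCCC, GTAATTAC and CGTCGACG were each lost without any of 6 arrays (highest adjusted p 0.113, 0.151 and 0.183), and those of ACGTACGT and CGTATACG without any of 5 (0.100 and 0.116).

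Of 1241 alternative values of named differences, 950 kept direction and side of the threshold, 244 lost the call, 29 gained one and 18 changed sign. TTGCGCAA for CREB1(A297V) against CREB1 became 0.62 without the window, 0.024 without CREB1 replicate 2 and 0.80 without unmethylated CREB1(A297V) replicate 1, with a lowest value of -1.28 without replicate 2 of that mutant. For methylation with CEBPB(V285A), TGACGTCA became 0.17 on the log2 scale and 0.79 with normexp, and TTACGTAA 0.59 on the log2 scale, 56.1 in the authors' scores and 2.59 with normexp. For methylation with CREB1(A297V), TGACGTCA became -0.16 with normexp, and TTACGTAA -2.90 with normexp and -1.08 after quantile normalization. For the interaction, normexp gave 0.95 for TGACGTCA, 5.49 for TTACGTAA and 2.26 for TTGCGCAA. The interaction of TTGCGCAA was also 0.70 on the log2 scale, 47.9 in the authors' scores, 1.95 after quantile normalization and, with single arrays left out, between -1.86 and 0.22, the highest without unmethylated CREB1(A297V) replicate 1. None of these differences was called in the main score except TGACGTCA for methylation with CREB1(A297V). With normexp the median of all 8-mers was -0.11 for CEBPB(V285A) against CREB1 and 0.17 for the interaction, against 0.01 and 0.02 in the main score.

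Deviations of same-numbered arrays correlated at -0.21 to 0.33 between groups, and the main fit did not pair the arrays. The highest value was between CREB1 and CREB1(A297V) on unmethylated DNA, which shared an identifier. Between the methylated groups, which also shared one, it was -0.002. With the replicate number as a block, 21, 58, 37, 67 and 13 palindromes were called in the 5 comparisons as ordered above, and no named call changed. Signal over background was 1.79 to 5.10, lowest on unmethylated CREB1(A297V) replicate 2.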

Other observations

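Palindromes with several CG were few: 38 held 2, 8 held 3 and 1 held 4. Among the 8 with a central CG and more than 1 CG in all, 0 were higher and 3 lower with CREB1(A297V) against CREB1 (median difference -0.87), and 0 were higher and 2 lower on methylated than on unmethylated DNA with CEBPB(V285A) (median -0.79). Over all 8-mers, 8.25% were higher and 10.8% lower in the first comparison, and 3.89% and 3.76% in the second. With only 8 members, these counts are descriptions. TACGCGTA, with 2 CG and a GC centre, was not among the 8. With CEBPB(V285A) it scored 8.08 and 7.86 on methylated DNA, against 5.59 and 5.85 on unmethylated DNA, a difference that was not called in the main score. It was the fifth palindrome with methylated CEBPB(V285A). In fold over the array median it stood at 4.18 on methylated and 2.24 on unmethylated DNA.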
